A study of Homo sapiens with 6 samples.

Results

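The 10 genes described here are the core of the circadian clock, chosen by symbol: PER1, PER2, PER3, CRY1, CRY2, ARNTL, CLOCK, NR1D1, NR1D2 and DBP. All 10 were found among the 60504 genes of the deposited table, each symbol in 1 protein-coding row, and all 10 passed the filter of a mean of at least 1 TPM that 15042 genes passed. TPM is a share of a library's transcripts, corrected for transcript length and scaled to the same total in every library, so levels can be set side by side between genes. RNA was measured in HCC827, an established human lung adenocarcinoma line with mutant EGFR. The 3D group held 3 libraries from tumoroids, seeded at 50000 cells per droplet of Matrigel (a gel of basement membrane proteins, here in its growth factor reduced form) and kept for 12 to 16 days. The 2D group held 3 libraries from monolayers in uncoated flasks, seeded at 1000000 cells and kept for 4 to 6 days before passage. Both groups grew in RPMI medium with fetal bovine serum, penicillin and streptomycin. All libraries came from 1 cell line, and no label says that the replicates were grown separately. The p-values below therefore reflect the spread among these libraries alone, and that spread may be technical. Geometry, gel contact, culture time and seeding number differ together between the groups and cannot be told apart. No source used here gives the hour of harvest or the time since the last feeding.

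The circadian clock is a transcriptional feedback loop that runs in nearly every cell. The proteins of ARNTL (also called BMAL1) and CLOCK pair and switch on the PER and CRY genes through E-box sequences, and the PER and CRY proteins then gather and block that pair until they are degraded. A second loop runs through the nuclear receptors of NR1D1 and NR1D2 (REV-ERB alpha and beta), which repress ARNTL, and DBP is a direct target of the pair that passes the rhythm to other genes. Cells in culture each keep a rhythm, and serum, glucocorticoids and cAMP signals can reset it. Each library is a single harvest of many cells, so the phase of a rhythm, its amplitude and a steady level cannot be told apart from these values, and neither can fewer cells expressing a gene and less RNA per cell.

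Promoter sequences are shown for the 3 members called between the cultures, PER1, PER2 and NR1D2, and for CRY1, which stood apart with PER2 in 1 of the 3D libraries. Each runs 5′ to 3′ on the gene's own strand from 250 bases before to 50 bases after the RefSeq start site, in build GRCh38.p14, and 9 of the 10 members had an entry (ARNTL had none). Capitals mark matches to the motifs searched on both strands: the E-box CACGTG, the related CACGTT, the D-box TTATGTAA or TTACGTAA that DBP binds, the REV-ERB and ROR element core TAGGTCA or TGGGTCA, and the cAMP response element TGACGTCA. The windows lie at chr17:8152355-8152654 on the minus strand for PER1, chr2:238288561-238288860 on the minus strand for PER2, chr3:23945036-23945335 on the plus strand for NR1D2 and chr12:107093500-107093799 on the minus strand for CRY1.
PER1: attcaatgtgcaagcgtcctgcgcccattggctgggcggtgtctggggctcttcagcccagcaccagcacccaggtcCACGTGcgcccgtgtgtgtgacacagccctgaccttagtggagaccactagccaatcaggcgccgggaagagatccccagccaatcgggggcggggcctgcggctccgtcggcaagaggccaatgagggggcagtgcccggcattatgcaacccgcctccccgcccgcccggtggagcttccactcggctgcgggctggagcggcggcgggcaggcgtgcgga
PER2: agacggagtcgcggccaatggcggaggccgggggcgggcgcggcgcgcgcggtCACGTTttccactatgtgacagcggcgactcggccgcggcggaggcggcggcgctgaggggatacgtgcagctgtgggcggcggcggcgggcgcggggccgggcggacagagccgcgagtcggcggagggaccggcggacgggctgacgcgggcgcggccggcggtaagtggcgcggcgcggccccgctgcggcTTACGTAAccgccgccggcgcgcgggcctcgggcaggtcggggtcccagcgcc
NR1D2: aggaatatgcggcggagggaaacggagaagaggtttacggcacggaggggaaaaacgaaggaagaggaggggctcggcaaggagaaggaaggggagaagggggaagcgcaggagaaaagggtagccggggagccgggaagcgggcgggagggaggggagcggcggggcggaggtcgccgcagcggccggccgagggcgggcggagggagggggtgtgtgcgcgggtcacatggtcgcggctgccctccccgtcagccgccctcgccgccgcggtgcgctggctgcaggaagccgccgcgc
CRY1: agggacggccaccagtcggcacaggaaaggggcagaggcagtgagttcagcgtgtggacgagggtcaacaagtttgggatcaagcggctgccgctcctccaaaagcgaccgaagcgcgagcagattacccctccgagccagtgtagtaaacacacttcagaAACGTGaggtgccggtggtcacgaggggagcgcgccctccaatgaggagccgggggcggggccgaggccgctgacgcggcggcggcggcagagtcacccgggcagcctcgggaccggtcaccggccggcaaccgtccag

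PER1 held CACGTG with its first base at position -173, counting the base at the start site as 1 and the base before it as -1, a motif found in 7.26% of the 35116 promoters of the same length. PER2 held CACGTT from position -197 (5.34% of promoters), and TTACGTAA, a palindrome, from position -3 (0.125% of promoters). In CRY1 and in NR1D1, CACGTT lay on the opposite strand, and PER3 held TTATGTAA (0.886% of promoters). NR1D2, CRY2, CLOCK and DBP held none of these letters in the window, and no member's window held the REV-ERB and ROR element core (1.85% of promoters for TAGGTCA and 3.92% for TGGGTCA) or the cAMP response element (also 1.85%). A match is a run of letters and not a measured binding site.

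The clock genes were expressed at low to middle levels in both cultures. Their values ran from 1.37 to 22.18 TPM, and by mean TPM they stood above 10.6% (PER3) to 53.86% (DBP) of the tested genes. In 3D the order of mean TPM was NR1D2 (17.6), DBP (11.7), PER2 (10.9), CRY1 (10.6), PER1 (9.66), ARNTL (6.52), CLOCK (6.45), NR1D1 (5.32), CRY2 (4.98) and PER3 (1.96). Only NR1D2 and DBP, PER1 and ARNTL, and CRY2 and PER3 were neighbours in this order whose 3D libraries did not overlap. In 2D the order was DBP (17.9), NR1D2 (8.83), CRY1 (8.69), ARNTL (5.89), PER1 (5.13), NR1D1 (4.88), CLOCK (3.80), PER2 (2.64), CRY2 (2.60) and PER3 (1.67). There DBP and NR1D2, CRY1 and ARNTL, and CRY2 and PER3 were the neighbours that did not overlap. PER2 thus stood among the 3 highest means in 3D and among the 3 lowest in 2D.

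**Figure D1:**
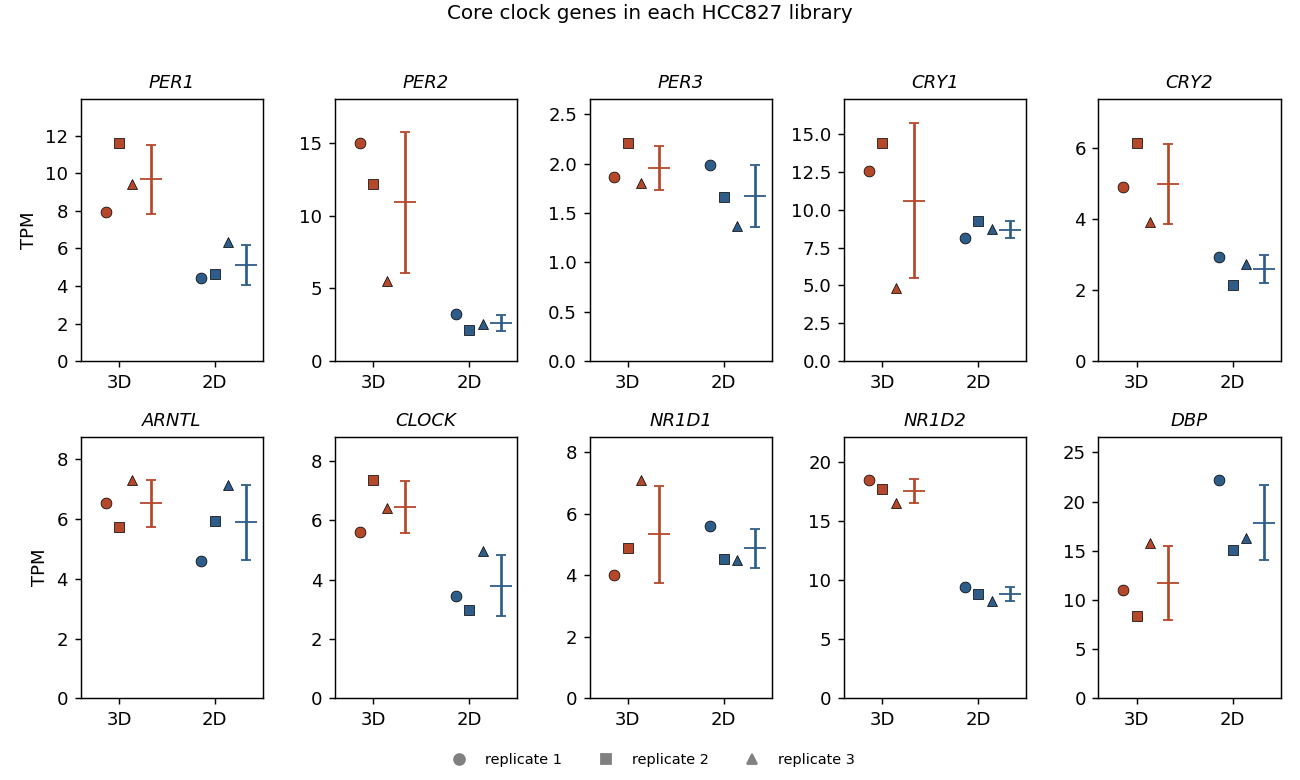
TPM of each clock gene (vertical axis, from 0) in the 3 libraries of 3D culture (left) and 2D culture (right), with symbols for the replicate number and bars for the mean ± SD. PER1, PER2, CRY2, CLOCK and NR1D2 have all 3D libraries above all 2D libraries, and PER3, CRY1, ARNTL, NR1D1 and DBP overlap.

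In the comparison of 3D with 2D, 3 of the 10 members were called higher, none was called lower and 7 did not pass the test (limma on log2(TPM + 1), Benjamini-Hochberg adjustment over all 15042 genes, threshold 0.05). Over all tested genes 10.2% were called higher and 2.12% lower, or 12.3% in either direction. In 5 of the 10 members every 3D library lay above every 2D library, which was so in 27.3% of tested genes, and in none did every 3D library lie below, which was so in 9.4%. Unadjusted p-values under 0.05 were found for 6 of the 10 members and for 31.4% of tested genes. The members' median log2 fold change was 0.40, against 0.12 over all tested genes. The members were chosen with earlier results of these data known, which limits these comparisons. Positive values were found for 9 of the 10 members and for 60.8% of tested genes on the TPM scale, for 6 members and 47.0% of genes under median-ratio scaling, and for 5 members and 46.7% of genes under quantile normalization. Under median-ratio scaling and quantile normalization the median of all genes was -0.03 and -0.04. A log2 fold change near 0.12 is therefore that of the typical gene on the TPM scale.

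PER2 had the largest log2 fold change among the members. PER2 encodes a repressor that enters the nucleus with the CRY proteins and scaffolds the repressive complex (chr2:238244038-238290102, minus strand, GENCODE 29 on GRCh38). It had 15.02, 12.21 and 5.54 TPM in the 3D libraries, against 3.25, 2.15 and 2.53 TPM in the 2D libraries. Every 3D library was above every 2D library, and 3D replicate 3 lay much closer to the 2D values than the other 2 did. Mean TPM was 10.9 ± 4.87 in 3D and 2.64 ± 0.559 in 2D (SD, n = 3 each), with a log2 fold change of 1.62 (SE 0.33, limma adjusted p = 0.0226). The call was lost with no filter on low TPM and on leaving out any one of 4 libraries, replicates 1 and 2 of each culture (limma adjusted p from 0.00279 to 0.0964 over 16 alternatives), with log2 fold changes between 1.01 and 2.01.

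PER1, a paralog that cAMP and glucocorticoid signals induce quickly, was also called higher (chr17:8140472-8156506, minus strand). Its levels were 7.94, 11.61 and 9.44 TPM in 3D, against 4.40, 4.64 and 6.35 TPM in 2D. The groups did not overlap, and the highest 2D library was replicate 3. The log2 fold change was 0.80 (SE 0.20, limma adjusted p = 0.0390). Its call was lost under 8 of 16 alternatives, namely no filter, median-ratio scaling, quantile normalization and the omission of any single library other than 2D replicate 3 (adjusted p up to 0.135). PER3, whose loss has mild effects on the clock in mice, was the lowest member (chr1:7784320-7845177, plus strand). It had 1.86, 2.21 and 1.80 TPM in 3D, against 1.99, 1.66 and 1.37 TPM in 2D, and the groups overlapped (log2 fold change 0.15, SE 0.20, limma adjusted p = 0.641).

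The cryptochromes, which block the ARNTL and CLOCK pair directly, differed from each other in their values. CRY2 (chr11:45847118-45883248, plus strand) had 4.91, 6.14 and 3.90 TPM in 3D, against 2.92, 2.15 and 2.72 TPM in 2D. Its groups did not overlap, yet the adjusted p missed the threshold (log2 fold change 0.72, SE 0.20, limma adjusted p = 0.0570). CRY2 was called with no trend in the variance model and on leaving out 3D replicate 3, alone or with 2D replicate 3 (adjusted p down to 0.0325).

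CRY1 (chr12:106991364-107093829, minus strand) had 12.60, 14.43 and 4.83 TPM in 3D, against 8.11, 9.24 and 8.71 TPM in 2D. Replicates 1 and 2 of 3D lay above all of 2D and replicate 3 lay below all of 2D. With all libraries the log2 fold change was 0.14 (SE 0.35, limma adjusted p = 0.800), and without 3D replicate 3 it was 0.58 (adjusted p = 0.0525). CRY1 was called higher on leaving out both libraries numbered 3 (log2 fold change 0.58, limma adjusted p = 0.0445).

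The activators had close levels in 3D. ARNTL, the partner without which the loop stops in mice, had 6.55, 5.72 and 7.30 TPM in 3D, against 4.61, 5.94 and 7.13 TPM in 2D (chr11:13276652-13387266, plus strand). These groups overlapped (log2 fold change 0.14, SE 0.19, limma adjusted p = 0.645). CLOCK, its DNA-binding partner, had 5.59, 7.34 and 6.41 TPM in 3D, against 3.46, 2.97 and 4.96 TPM in 2D (chr4:55427903-55547138, minus strand). All 3D values were above all 2D values, but the gene was not called (log2 fold change 0.65, SE 0.20, limma adjusted p = 0.0760). It was called on leaving out 2D replicate 3, alone or with 3D replicate 3 (adjusted p down to 0.0342). CLOCK shares 76 exonic bases with TMEM165 on the opposite strand, a gene with 82.05, 91.06 and 69.43 TPM in 3D against 35.08, 37.57 and 32.61 TPM in 2D. TMEM165 was called higher (limma adjusted p = 0.00423). The library kit keeps strand, but no source used here states whether the counting used strand, and the part of these reads in the CLOCK values was not tested.

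NR1D2, the other called member, had closely grouped libraries. This gene of REV-ERB beta (chr3:23945260-23980618, plus strand) had 18.48, 17.71 and 16.51 TPM in 3D, against 9.44, 8.82 and 8.24 TPM in 2D. The lowest 3D library was well above the highest 2D library, and the spread within each group was small, with mean TPM of 17.6 ± 0.993 in 3D and 8.83 ± 0.600 in 2D (SD, n = 3 each). The log2 fold change was 0.92 (SE 0.13, limma adjusted p = 0.00746). NR1D2 was called under all 16 alternatives, with log2 fold changes from 0.71 to 0.98 and adjusted p up to 0.0490, and it was the only member of which this was so. Its paralog NR1D1 (chr17:40092787-40100725, minus strand) had 4.01, 4.87 and 7.08 TPM in 3D, against 5.61, 4.52 and 4.50 TPM in 2D. The groups overlapped, with both the lowest and the highest value in 3D (log2 fold change 0.08, SE 0.21, limma adjusted p = 0.820). NR1D1 shares 263 exonic bases with THRA, a thyroid hormone receptor gene on the opposite strand. THRA had 7.79, 6.31 and 8.31 TPM in 3D, against 9.32, 6.66 and 8.32 TPM in 2D.

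DBP, the transcription factor of the clock's output, was the only member with a negative log2 fold change (chr19:48630030-48637438, minus strand). It had 10.99, 8.41 and 15.79 TPM in 3D, against 22.18, 15.11 and 16.28 TPM in 2D. Replicate 3 of 3D lay within the 2D range, and the other 2 lay below it. Mean TPM was 11.7 ± 3.75 in 3D and 17.9 ± 3.79 in 2D (SD, n = 3 each), and the difference did not pass the test (log2 fold change -0.59, SE 0.24, limma adjusted p = 0.144). Of the 16 alternatives, it passed only on leaving out both libraries numbered 3 (adjusted p = 0.0348). DBP shares 661 exonic bases with SPHK2, a sphingosine kinase gene on the opposite strand, which had 2.51 to 4.31 TPM in 3D and 2.86 to 4.86 TPM in 2D. NKIRAS1 overlaps NR1D2 on the opposite strand without shared exonic bases and had 5.04 to 9.22 TPM in 3D and 5.08 to 6.11 TPM in 2D. Other annotated genes that overlap a member did not exceed 0.64 TPM where the table lists them.

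**Figure D2:**
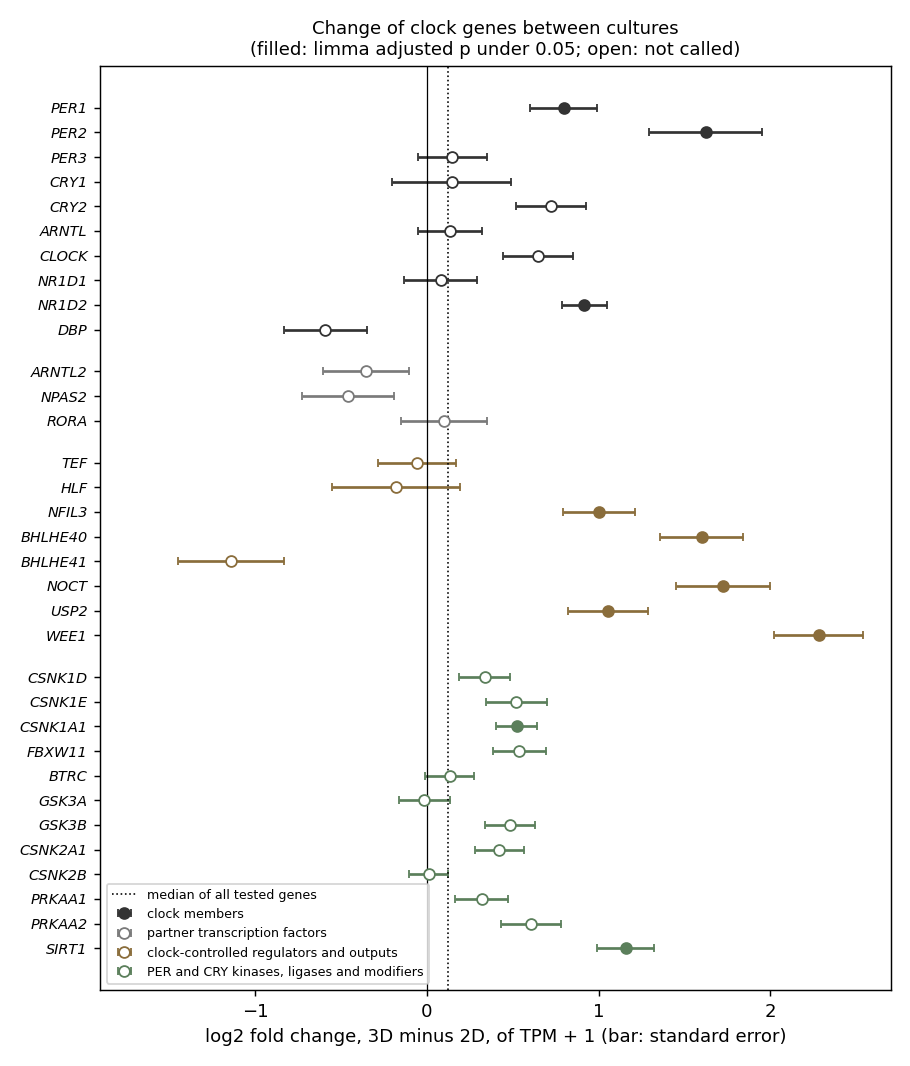
Log2 fold change of TPM + 1, 3D minus 2D (horizontal axis), with standard errors, for the 10 clock members, partner factors, clock-controlled genes and modifiers of PER and CRY; filled points are called and open points are not, and the dotted line is the median of all tested genes at 0.12. PER1, PER2 and NR1D2 are the filled members, and the longest distance from 0 among all genes drawn is that of WEE1 at 2.28.

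The third 3D library differed from the other 3D libraries in several members at once. On the log2(TPM + 1) scale, 3D replicate 3 minus the mean of 3D replicates 1 and 2 was -1.31 for CRY1, a gap in that direction that 1.097% of tested genes reached or passed. The same difference was -1.15 for PER2 (1.409% of tested genes) and -0.41 for CRY2 (14.01%). NR1D1 and DBP lay on the other side, at 0.58 and 0.66 (7.978% and 6.216% of tested genes). The median of all tested genes in that measure was -0.0062. In 2D replicate 3 the members lay between -0.25 (PER3) and 0.50 (CLOCK) relative to 2D replicates 1 and 2, and PER2 and CRY1 lay at -0.052 and 0.0077. In the first 2 principal components of all tested genes, which held 52.7% and 19.5% of the variance, the third library of each group was also set apart from the others of its group along the second. Both were displaced in the same direction, at -18.6 (3D) and -42.0 (2D), and the other libraries lay between 3.99 and 25.6. Along the first component 3D replicate 3 lay nearer to the 2D libraries, at -22.7 against -42.9 and -48.6 for 3D replicates 1 and 2. These departures are descriptions of single libraries with no test.

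**Figure D3:**
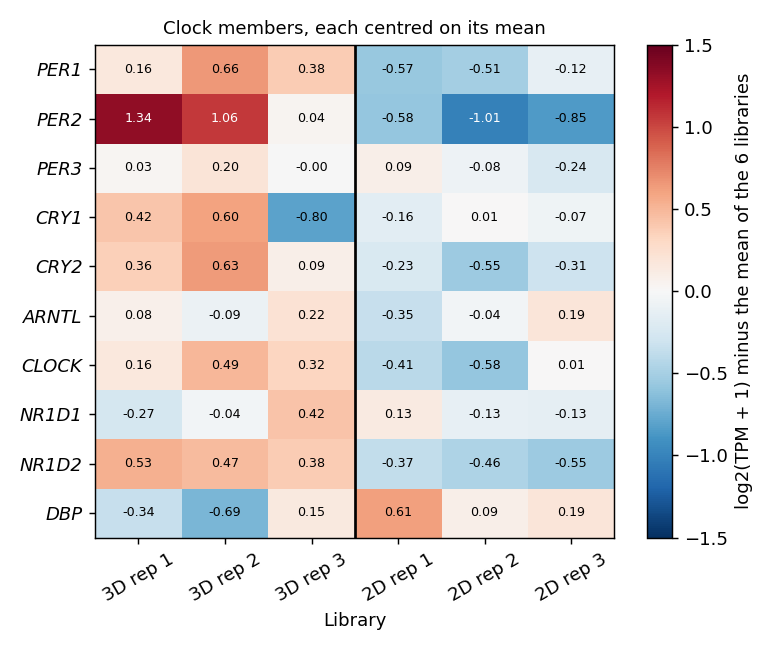
Log2(TPM + 1) of each clock gene minus its mean over the 6 libraries (colour and printed value), with 3D libraries left of the line and 2D libraries right of it. In 3D replicate 3, PER2 stands at 0.04 and CRY1 at -0.80, whereas both are positive in 3D replicates 1 and 2.

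Ratios between clock genes within a library do not depend on a common scaling of that library. The PER2 to CRY1 ratio of TPM was 1.19, 0.846 and 1.15 in the 3D libraries, against 0.401, 0.233 and 0.290 in the 2D libraries. This ratio was higher in every 3D library, including replicate 3, in which both genes were low among the 3D libraries. The NR1D1 to NR1D2 ratio was 0.217, 0.275 and 0.429 in 3D, against 0.594, 0.512 and 0.546 in 2D, so that NR1D2 led NR1D1 in all 6 libraries and by more in 3D. DBP was set against NFIL3, a repressor that binds the same D-box elements. The DBP to NFIL3 ratio was 0.414, 0.220 and 0.512 in 3D, against 1.58, 1.22 and 0.813 in 2D, again without overlap. The ARNTL to CLOCK ratio was 1.17, 0.779 and 1.14 in 3D and 1.33, 2.00 and 1.44 in 2D, and the CRY2 to CRY1 ratio was 0.390, 0.426 and 0.807 in 3D and 0.360, 0.233 and 0.312 in 2D. Both of these were also apart, by narrow gaps. The ratio of NR1D1 to ARNTL, its target, overlapped between the groups (0.612, 0.851 and 0.970 in 3D, against 1.22, 0.761 and 0.631 in 2D), as did that of PER1 to PER2 (0.529, 0.951 and 1.70 in 3D, against 1.35, 2.16 and 2.51 in 2D). These ratios were given no test, and the share of all gene pairs that are apart was not counted. Each ratio that was apart set a gene with all 3D libraries above all 2D libraries (PER2, CRY2, NR1D2, NFIL3 or CLOCK) against a gene that overlapped. Such a ratio partly restates the values of that gene.

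**Figure D4:**
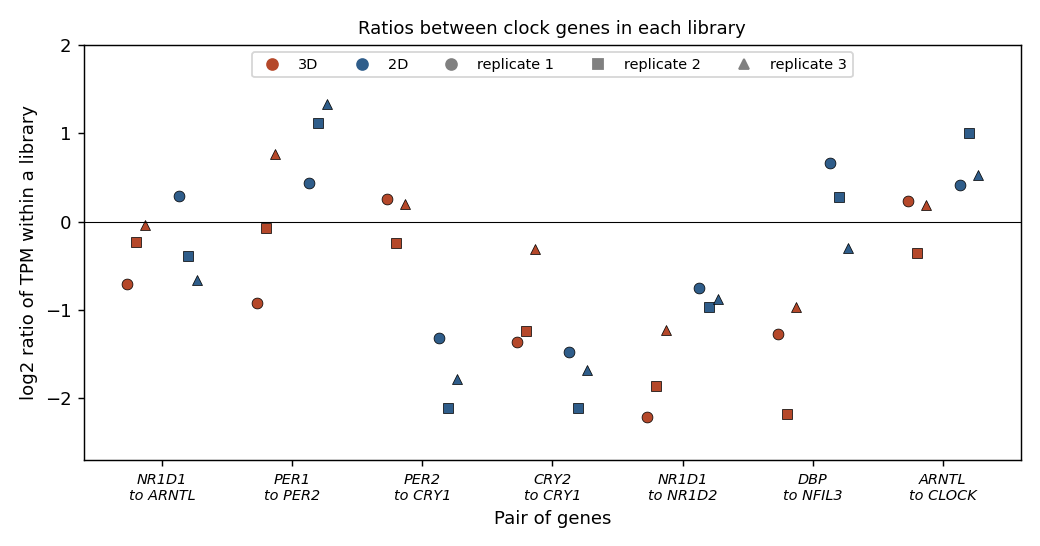
Log2 ratio of TPM between pairs of clock genes (vertical axis) in each 3D and 2D library, with symbols for the replicate number. PER2 to CRY1, CRY2 to CRY1, NR1D1 to NR1D2, DBP to NFIL3 and ARNTL to CLOCK are apart between the cultures, and NR1D1 to ARNTL and PER1 to PER2 overlap.

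The transcription factors that can stand in for or oppose core members were not called. Of 4 listed, 3 were tested, and none was called higher or lower or had an unadjusted p under 0.05. In the whole set of tested genes 10.2% were called higher, 2.12% were called lower and 31.4% had an unadjusted p under 0.05. NPAS2, which can replace CLOCK, had 7.25, 12.12 and 10.59 TPM in 3D, against 11.90, 10.84 and 20.18 TPM in 2D (limma adjusted p = 0.283). ARNTL2, a paralog of ARNTL, had 15.64, 21.87 and 19.86 TPM in 3D, against 18.92, 21.34 and 36.31 TPM in 2D (adjusted p = 0.369). Both overlapped, both were highest in 2D replicate 3, and ARNTL2 had a higher mean than ARNTL in each culture. RORA encodes an activator that competes with the REV-ERB proteins for the same elements. RORA had 1.50 to 3.01 TPM in 3D and 1.56 to 2.60 TPM in 2D, and its paralog RORB was at or below 0.02 TPM in every library.

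Among clock-controlled regulators and outputs, WEE1 and, by a narrow gap, NOCT had larger log2 fold changes than any of the 10 members. Of 9 listed, 8 were tested, 5 were called higher, none was called lower and 3 did not pass the test, with a median log2 fold change of 1.03. The shares of all tested genes were 10.2% higher and 2.12% lower, with a median of 0.12. This list, like the members and the other lists, was chosen with earlier results of these data known. USP2 passed the filter only through its 3D values, and without it 4 of 7 were called higher, with a median of 1.01. WEE1, a kinase that holds back mitosis and is under clock control in mouse liver, had 128.78, 90.72 and 58.57 TPM in 3D, against 16.95, 17.40 and 17.69 TPM in 2D. All 3D libraries were far above the 2D libraries, which were almost equal. Its log2 fold change was 2.28 (SE 0.26, limma adjusted p = 0.00336), and it was called under all 16 alternatives. NOCT, which encodes nocturnin, a phosphatase of NADPH with rhythmic expression in mice, had 9.58, 6.58 and 5.64 TPM in 3D, against 1.07, 1.09 and 2.41 TPM in 2D. Its log2 fold change was 1.72 (SE 0.27, limma adjusted p = 0.0110), and the call was lost without 3D replicate 1 or without 2D replicate 2 (adjusted p up to 0.0518). With the filter raised to a mean of 5 TPM, NOCT fell below it and had no test.

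BHLHE40 and BHLHE41 encode repressors that bind E-boxes and oppose ARNTL and CLOCK, and they had opposite signs. BHLHE40 (DEC1) had 83.56, 125.70 and 116.17 TPM in 3D, against 30.12, 28.13 and 48.67 TPM in 2D. The groups were far apart (log2 fold change 1.60, SE 0.24, limma adjusted p = 0.00980), and the call was lost only without 3D replicate 2 (adjusted p = 0.0505). BHLHE41 (DEC2) had 2.22, 2.45 and 3.69 TPM in 3D, against 10.19, 8.50 and 4.24 TPM in 2D, with every 3D library below every 2D library. Its adjusted p was 0.0509 (limma log2 fold change -1.14, SE 0.31), and it was called lower under 7 of 16 alternatives, among them median-ratio scaling, quantile normalization and the omission of 3D replicate 3 or 2D replicate 3 (adjusted p down to 0.00377).

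NFIL3, the D-box repressor, had 26.52, 38.15 and 30.86 TPM in 3D, against 14.04, 12.43 and 20.02 TPM in 2D. It was called higher (log2 fold change 1.01, SE 0.21, limma adjusted p = 0.0249), a call lost with no filter and on leaving out replicate 1 or 2 of either culture (adjusted p up to 0.0965). TEF and HLF, the relatives of DBP that activate through the same D-box, were not called. TEF had 3.61, 2.55 and 4.81 TPM in 3D, against 4.49, 3.26 and 3.57 TPM in 2D, and HLF had 0.79, 0.92 and 1.83 TPM in 3D, against 0.99, 0.74 and 3.08 TPM in 2D. Both overlapped between the cultures. USP2, a deubiquitinase, was low, with 2.12, 2.27 and 1.41 TPM in 3D, against 0.44, 0.37 and 0.39 TPM in 2D. Its mean was 1.93 TPM in 3D and 0.40 TPM in 2D, so its 3D values alone carried it over the filter. The adjusted p was 0.0285 (limma), and the call was lost without the filter, under quantile normalization and without 2D replicate 1 or 2D replicate 2. USP2 fell below the filter, and so had no test, without 3D replicate 1, without 3D replicate 2 and at a mean of at least 5 TPM. CIART, a clock repressor also known as CHRONO, fell below the filter with 0.56, 0.58 and 1.03 TPM in 3D, against 0.08, 0.47 and 0.38 TPM in 2D.

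**Figure D5:**
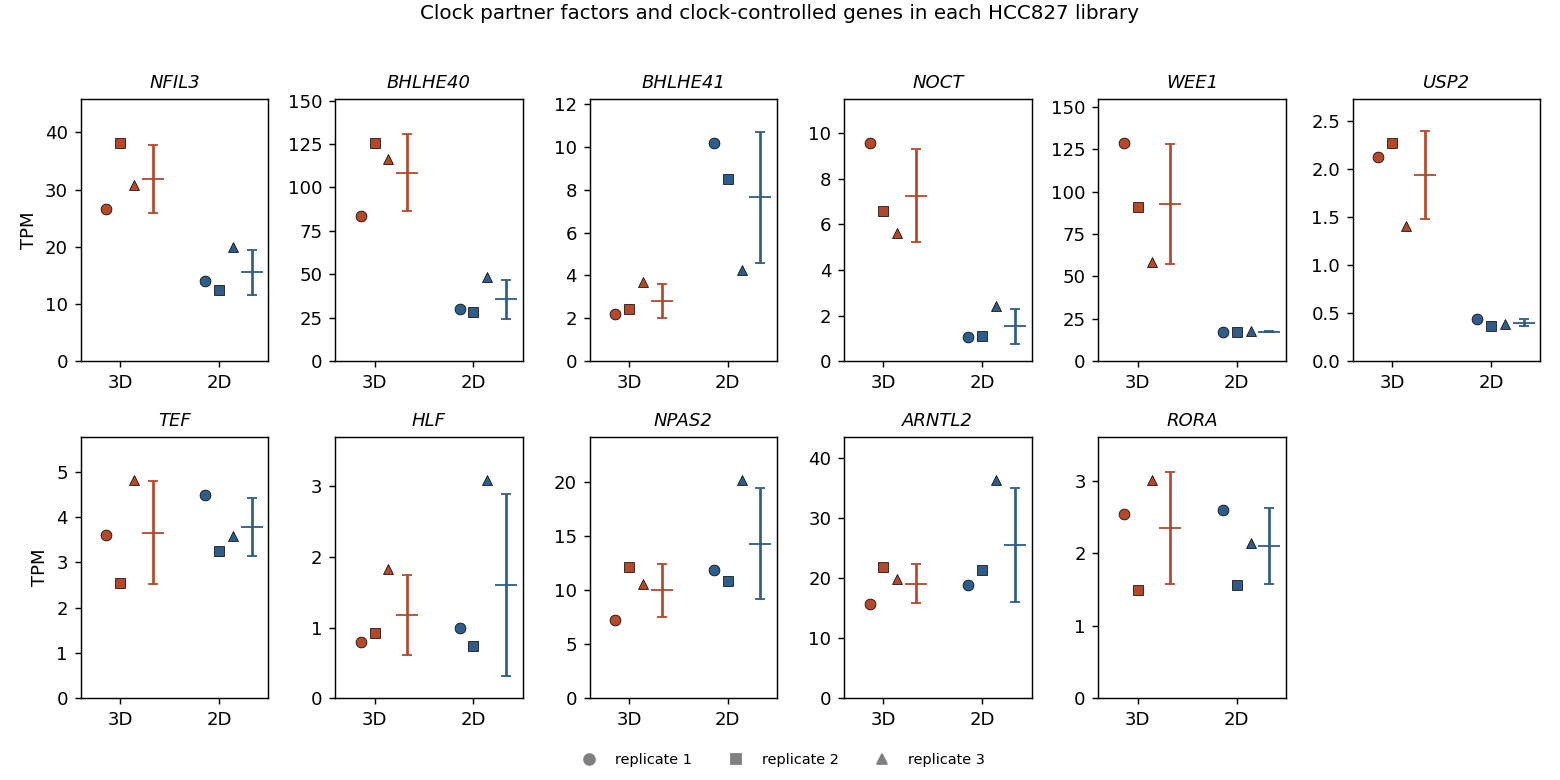
TPM (vertical axis, from 0) of clock-controlled genes and partner factors in the 3 libraries of 3D culture (left) and 2D culture (right), with bars for the mean ± SD. NFIL3, BHLHE40, NOCT, WEE1 and USP2 are higher in every 3D library, BHLHE41 is lower in every 3D library, and TEF, HLF, NPAS2, ARNTL2 and RORA overlap.

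Another list held enzymes that act on the PER and CRY proteins and set their lifetime. Of 13 listed, 12 were tested, 2 were called higher, none was called lower and 10 did not pass the test. Over all tested genes 10.2% were called higher and 2.12% lower. Every 3D library lay above every 2D library in 9 of the 12 and in 27.3% of tested genes. Unadjusted limma p-values under 0.05 were found for 7 of the 12 and for 31.4% of tested genes. The median log2 fold change of the 12 was 0.45. Positive values were found for 11 of the 12 (9 under median-ratio scaling and 10 under quantile normalization), beside 60.8% of all tested genes (47.0% and 46.7% under those scalings). SIRT1, a deacetylase that acts on PER2 and ARNTL, had 17.91, 16.60 and 14.32 TPM in 3D, against 7.69, 7.16 and 5.47 TPM in 2D (log2 fold change 1.16, SE 0.17, limma adjusted p = 0.00819), and was called under all 16 alternatives. CSNK1A1, a casein kinase, had 206.17, 208.99 and 200.91 TPM in 3D, against 139.08, 132.47 and 157.34 TPM in 2D (limma adjusted p = 0.0328). CSNK1A1 lost its call with no filter, with median-ratio scaling, with no trend, with the replicate block and on leaving out replicate 1 or 2 of either culture (adjusted p up to 0.127). CSNK1D and CSNK1E, the casein kinases that phosphorylate PER proteins, had log2 fold changes of 0.34 and 0.52 and were not called (limma adjusted p = 0.172 and 0.0942).

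Among 12 partners, corepressors and coactivators, 1 was called higher, 1 was called lower and 10 did not pass the test, with a median log2 fold change of 0.14. Of all tested genes 10.2% were called higher and 2.12% lower, with a median of 0.12. TIMELESS, a replication fork protein that also binds PER and CRY proteins, had 19.61, 17.36 and 20.66 TPM in 3D, against 32.71, 26.32 and 31.96 TPM in 2D (log2 fold change -0.63, SE 0.14, limma adjusted p = 0.0310). Its call was lost with no filter and on leaving out any single library other than 3D replicate 3 (adjusted p up to 0.113). DDX5, an RNA helicase found in the PER complex in mice, had 856.44, 740.92 and 592.67 TPM in 3D, against 466.49, 474.95 and 380.29 TPM in 2D (limma adjusted p = 0.0385). DDX5 lost its call under 9 of 16 alternatives, namely no filter, both other scalings, no trend and the omission of any single library other than 3D replicate 3 (adjusted p up to 0.146). A list of 12 genes covered signals that reset the clock and genes that such signals induce, such as SGK1, FKBP5 and TSC22D3. Of these 12, 2 were called higher, none was called lower and 10 did not pass the test, with a median log2 fold change of 0.35. The share of higher calls among all tested genes was 10.2%. Positive values were found for 11 of the 12 (8 under median-ratio scaling and 9 under quantile normalization), beside 60.8% of all tested genes (47.0% and 46.7%). SIK1 passed the filter only through its 3D values, and without it 2 of 11 were called higher, with a median of 0.35. SGK1, a kinase induced by glucocorticoids and serum, had 339.46, 348.46 and 194.14 TPM in 3D, against 43.45, 37.58 and 61.73 TPM in 2D (log2 fold change 2.58, SE 0.27, limma adjusted p = 0.00241), and was called under all 16 alternatives. SRF, the factor that carries serum signals to transcription, had 20.40, 20.07 and 14.32 TPM in 3D, against 10.66, 8.47 and 10.58 TPM in 2D (limma adjusted p = 0.0293). The SRF call was lost with no filter, with both other scalings and on leaving out replicate 1 or 2 of either culture (adjusted p up to 0.117). FKBP5 and TSC22D3, which glucocorticoids also induce, were not called and overlapped between the cultures. FKBP5 had 9.28 to 13.75 TPM in 3D and 9.29 to 12.25 TPM in 2D. TSC22D3 had 60.87 to 106.16 TPM in 3D and 49.62 to 83.31 TPM in 2D. NR3C1 of the same list was apart, with 18.37 to 22.73 TPM in 3D and 11.94 to 18.15 TPM in 2D, and was not called (limma adjusted p = 0.0915). SIK1 overlapped, with 0.87 to 3.38 TPM in 3D and 0.25 to 1.15 TPM in 2D, and was not called (limma adjusted p = 0.143). The part of glucocorticoid signals in these values was not tested.

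The genes whose pattern over the 6 libraries was most like each called member were found among 9975 protein-coding genes of a mean of at least 5 TPM, by the root mean square distance of centred log2(TPM + 1). For NR1D2 they were TEAD2 (distance 0.046) and RPS6KA3 (0.052), and for PER1 they were RAPH1 (0.049) and MEF2A (0.070). For PER2 the nearest, CLDN1 (0.176) and PGM2L1 (0.187), were farther away. The distance is not scaled by the size of a gene's change, which was largest for PER2 among the called members. Distances therefore do not compare between members. CLDN1 was likewise low in 3D replicate 3 among the 3D libraries, with 17.88, 17.07 and 6.77 TPM in 3D, against 5.49, 4.19 and 3.89 TPM in 2D.

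Epithelial markers chosen for this line were present in all libraries, with EPCAM at 566.63 to 588.52 TPM in 3D and 572.64 to 631.32 TPM in 2D and NKX2-1 at 58.94 to 79.93 TPM in 3D and 58.89 to 65.91 TPM in 2D. None of the 6 was called, their median log2 fold change was -0.28, and 4 of the 6 values were negative. KRT18 was lower in every 3D library, with 890.15, 812.61 and 1515.43 TPM in 3D, against 1693.35, 1613.83 and 1976.71 TPM in 2D (log2 fold change -0.77, limma adjusted p = 0.0794). KRT8 and KRT19 had log2 fold changes of -0.65 and -0.51, with groups that overlapped. Summed markers of other cell types were low, at 6.99 to 12.07 TPM in 3D and 2.10 to 2.96 TPM in 2D for 6 fibroblast genes, 2.52 to 3.75 TPM in 3D and 2.28 to 3.40 TPM in 2D for 5 leukocyte genes, and 1.51 to 3.98 TPM in 3D and 0.68 to 1.46 TPM in 2D for 4 endothelial genes. Only COL1A1 of the fibroblast genes passed the filter, and it was called higher (limma adjusted p = 0.0170). Of the marker genes below the filter, 6 were higher in every 3D library than in any 2D library. Among tested genes 27.3% were apart in that direction, and the share was not counted for genes below the filter. LUM had 0.80 to 1.49 TPM in 3D and 0.08 to 0.36 TPM in 2D, KDR had 0.64 to 2.5 TPM in 3D and 0.01 to 0.08 TPM in 2D, and CDH5 had 0.42 to 1.02 TPM in 3D and 0.06 to 0.21 TPM in 2D. The others, VWF, LYZ and PTPRC, did not exceed 0.36 TPM. COL3A1 was listed at 0 in all libraries, COL1A2 did not exceed 0.01 TPM, and PTPRC was listed at 0 in all 2D libraries and did not exceed 0.25 TPM in 3D. The part of these markers in the clock gene differences was not tested.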

How the data were processed

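The authors deposited 1 table of TPM for 60504 genes in 6 libraries, with 2 decimals. Every column adds up to 1000000 within rounding. These TPM values carry no record of depth, which is therefore unknown, so counting intervals cannot be given and a value of 0 is reported as listed. Per the labels' protocols, poly(A) RNA from samples with an RNA integrity number above 9 went into a directional kit and was sequenced as single-end reads of 75 nt. The tools named per the submitters' processing notes were RSEM 1.3.1, STAR 2.7.0d and cutadapt 2.3, with hg38 as the genome build. Their roles, the annotation release and any use of strand in the counting are not stated there, so overlapping genes are uncertain.

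Groups came from the sample titles, and each column was matched to 1 title. Genes averaging 1 TPM or more over the 6 libraries were put on the log2(TPM + 1) scale and compared with limma 3.58.1 (trended eBayes, R 4.3.3), 3D against 2D with no covariate, two-sided, with p-values adjusted by Benjamini-Hochberg across the 15042 genes tested and called under 0.05. Fold changes on this scale understate those of low genes. An exact test of 3 against 3 cannot go below 0.1, so none was run. The members and the 5 related gene lists were chosen with earlier results of these data known; 2 genes of these lists are not reported here and are left out of the list counts. Named genes were all members and all genes of the lists of partner factors and clock-controlled genes, called genes of the other lists, genes whose annotation overlaps a member, and for each called member the 2 genes of nearest pattern. CSNK1D, CSNK1E, FKBP5, TSC22D3, NR3C1, SIK1 and the markers named were added after their values were seen. Gene coordinates and overlaps came from GENCODE 29 on GRCh38 and promoters from RefSeq on GRCh38.p14, matched by Ensembl identifier. The alternatives were pseudocounts of 0.1 and 5, no filter, a mean of at least 5 TPM, median-ratio scaling, quantile normalization, a replicate block, eBayes with the robust option or with no trend, each library left out and both libraries numbered 3 left out, 16 in all. Plots used Python 3.11.15 and matplotlib 3.10.9.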

Additional observations from a re-analysis of the deposited data

How the results depend on the processing

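Depth is unknown and each group holds 3 libraries, so small changes of low genes were not detectable here. Over all tested genes 1536 were called higher and 319 lower; the counts were 729 and 86 without the filter, 943 and 669 under median-ratio scaling, 869 and 576 under quantile normalization, from 367 to 1607 and from 29 to 563 with each library left out in turn, and 2464 and 1356 without both libraries numbered 3. The share of higher genes among those called was 82.8% on the TPM scale, 58.5% under median-ratio scaling and 60.1% under quantile normalization. Clock members called higher numbered 3, against 1 without the filter, 2 under median-ratio scaling, 2 under quantile normalization and 4 with no trend. Their number ran from 1 to 4 with each library left out in turn, and was 6 without both libraries numbered 3, when 1 (DBP) was called lower. Clock-controlled genes called higher numbered 5, against 3 without the filter, 4 under quantile normalization and from 2 to 5 with each library left out. With the filter raised to 5 TPM, 3 of the 4 genes still tested were called higher. NOCT and USP2 were below that filter and had no test. USP2 also had none without 3D replicate 1 or without 3D replicate 2. Of the clock-controlled genes 1 (BHLHE41) was called lower at a pseudocount of 0.1, under either other scaling, with the robust option and on leaving out replicate 3 of either culture or of both. Modifiers of PER and CRY called higher numbered 2, against 1 without the filter, under median-ratio scaling, with no trend and with the replicate block, from 1 to 4 with each library left out and 6 without both libraries numbered 3. Partners and corepressors called higher numbered 1, against 0 without the filter, under either other scaling and with no trend, 2 with the replicate block, from 0 to 2 with each library left out and 4 without both libraries numbered 3; those called lower numbered 1, against 0 without the filter and from 0 to 1 with each library left out. Genes listed for signals that reset the clock, or induced by them, numbered 2 called higher. The number was 1 without the filter and under either other scaling, from 1 to 3 with each library left out and 4 without both libraries numbered 3. Apart from genes that fell below a filter, the cause of these shifts was not tested.

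Log2 fold changes near 0 changed sign. Under median-ratio scaling they were -0.017 for CRY1, -0.017 for ARNTL, -0.067 for NR1D1 and -0.019 for RORA. Under quantile normalization they were -0.068 for PER3, -0.050 for CRY1, -0.091 for ARNTL, -0.14 for NR1D1 and -0.12 for RORA. With each library left out in turn the values ran from -0.12 to 0.58 for CRY1, from -0.0031 to 0.26 for ARNTL, from -0.11 to 0.23 for NR1D1, from -0.043 to 0.30 for RORA, from -0.23 to 0.13 for TEF and from -0.42 to 0.20 for HLF. On leaving out both libraries numbered 3, NR1D1 and RORA were at -0.16 and -0.027. None of these genes was called under the settings that changed its sign. Of the other values of the 27 members and listed genes followed under the alternatives, 333 kept their call or lack of one, 55 lost a call and 14 gained one. The ratios between members were the same under median-ratio scaling by construction and moved by less than their spread under quantile normalization.

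Whether replicate numbers pair the libraries could not be decided with 3 libraries per group. Deviations from the group means correlated at 0.10, 0.036 and 0.19 for numbers 1, 2 and 3 across genes. Between unlike numbers the correlations ran from -0.17 to 0.13. A batch shared by libraries of the same number is not excluded by these values. With the replicate block 1479 genes were called higher and 395 lower. PER1, PER2 and NR1D2 were called under it, and not every library correlated best with its own number.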
